A study of Mus musculus with 6 samples.

Results

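A tumor microenvironment (TME) can use up tryptophan and arginine or build up adenosine, and 9 genes of these routes were measured: Ido1, Ido2, Tdo2, Il4i1, Nos2, Nt5e, Entpd1, Adora2a and Adora2b. They were chosen by exact symbol from the 26167 genes of the deposited tables, and all 9 were found. The RNA came from tumors of Hepa1-6, a mouse hepatoma cell line (Hep1-6 in the labels), grown under the skin of female C57BL/6J mice that were 6 to 8 weeks old. From control tumors there were 3 libraries, numbered 1, 3 and 4, and another 3 came from tumors treated with sorafenib (Sora), a multikinase inhibitor used in advanced hepatocellular carcinoma (HCC), numbered 2, 3 and 4. The treated mice received 10 mg/kg Sora into the peritoneum on every second day from day 9 to day 15, and the labels call the other mice control without naming what they received. A tumor under the skin from 1 established line has no liver around it. The labels do not say that each library came from a separate mouse, so p-values measure the spread between these 6 samples.

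T cells need tryptophan and arginine to proliferate. Ido1, Ido2 and Tdo2 open the tryptophan ring and start the kynurenine pathway, whose products can bind the aryl hydrocarbon receptor (AhR), and Il4i1 is a secreted oxidase of aromatic amino acids. Nos2, well known from tumor myeloid cells, oxidizes arginine to nitric oxide. Outside the cell, Entpd1 (CD39) removes phosphates from ATP and ADP, Nt5e (CD73) turns the remaining AMP into adenosine, and adenosine signals through the Gs-coupled receptors Adora2a and Adora2b, which raise cyclic AMP and dampen T cell activity.

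Of the 9 genes, 7 had enough reads to be tested (at least 10 counts in at least 3 tumors), and none of these 7 passed an adjusted p under 0.05 in Sora-treated against control tumors, with 0 up-regulated and 0 down-regulated (edgeR's quasi-likelihood test, Benjamini-Hochberg adjustment over 16513 genes). Among all genes tested, up-regulation was called for 321 (1.94%) and down-regulation for 222 (1.34%). At an unadjusted p under 0.05, 3 of the 7 genes passed (Entpd1, lower, and Ido1 and Ido2, higher), beside 17.2% of all genes. DESeq2 called 0 of the 7, beside 7.89% of all genes with an adjusted p. The median log2 fold change (Sora over control) was 0.023 over the 7 genes and -0.00037 over all genes, and their median standard errors (SE) were 0.18 and 0.12. Only Ido2 of the 7 had groups that did not overlap in CPM (the reads of a gene divided by the TMM-scaled library total), beside 22.2% of all genes. Tdo2 and Il4i1 had too few reads for the test.

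Total counts were 31073830 to 36205814 reads per tumor. The tables hold counts for 5 tumors and FPKM (reads per base of gene length and per read of the library, on a fixed scale) for 6, and for Sora-treated tumor 4 the FPKM were turned back into counts. The calls over all genes rested much on this tumor: without it edgeR called 4 genes higher and 1 lower, against 574 and 571 without Sora-treated tumor 3. Leaving out any other tumor gave from 83 and 34 (Sora-treated tumor 2) to 209 and 107 (control tumor 3). None of the hepatoma and hepatocyte markers examined was at 0 in every tumor, and their summed FPKM was 2660 to 3270 in control and 2660 to 2900 in Sora-treated tumors. Of the 10 tested, Apoa1 and Hnf4a were up-regulated and Alb and Ttr were down-regulated (edgeR). DESeq2 called 1 of these markers higher and 2 lower, beside 7.89% of all genes in either direction. In RNA from whole tumors, fewer cells of a type and less RNA per cell cannot be told apart.

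Promoter windows are printed for 4 genes to show their sequence beside the values: the member with the largest ratio between the groups in reads (Tdo2), the tested member with the smallest p (Entpd1), and Tiparp and Ahrr, textbook AhR target genes that were up-regulated here. Of the 9 genes, 5 had a window in the RefSeq promoter table (GRCm38.p6). Ido1, Ido2, Nos2 and Adora2a had no entry. Each line gives the 250 bases before the start, 5′ to 3′ on the strand of the gene, with the AhR core motif GCGTG in capitals on either strand (CACGC is the same motif on the other strand). Entpd1 has 2 starts in the table and the window of the first is shown.
Tdo2, chr3:81975729-81975978, minus strand: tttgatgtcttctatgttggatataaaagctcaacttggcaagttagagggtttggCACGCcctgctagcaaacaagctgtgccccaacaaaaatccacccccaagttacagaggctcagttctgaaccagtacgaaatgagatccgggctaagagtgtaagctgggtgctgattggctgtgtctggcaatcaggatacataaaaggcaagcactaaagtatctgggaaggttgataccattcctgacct
Entpd1, chr19:40612116-40612365, plus strand: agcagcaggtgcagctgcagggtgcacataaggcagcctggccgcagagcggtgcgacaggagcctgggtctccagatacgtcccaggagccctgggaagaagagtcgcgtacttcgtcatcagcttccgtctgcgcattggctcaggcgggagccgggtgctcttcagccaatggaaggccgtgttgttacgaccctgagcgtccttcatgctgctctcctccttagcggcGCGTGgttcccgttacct
Tiparp, chr3:65528197-65528446, plus strand: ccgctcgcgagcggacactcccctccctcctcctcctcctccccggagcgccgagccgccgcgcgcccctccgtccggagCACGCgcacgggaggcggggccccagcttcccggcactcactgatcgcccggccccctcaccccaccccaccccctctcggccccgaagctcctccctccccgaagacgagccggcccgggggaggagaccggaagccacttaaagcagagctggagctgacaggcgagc
Ahrr, chr13:74292332-74292581, minus strand: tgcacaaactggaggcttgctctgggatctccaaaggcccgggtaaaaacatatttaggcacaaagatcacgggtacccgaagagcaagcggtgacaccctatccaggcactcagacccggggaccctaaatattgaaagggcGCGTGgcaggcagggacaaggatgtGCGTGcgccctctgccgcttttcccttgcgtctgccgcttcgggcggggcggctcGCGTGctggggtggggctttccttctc

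The motif was present in 28.2% of the 32851 windows of this length in the table, and 4 of the 6 windows of the members held it, with none in the second window of Entpd1 or in that of Il4i1. The window of Ahrr held 3 copies, and those of Tiparp, Cyp1a1 and Cyp1b1 held 1 each, of which Cyp1a1 and Cyp1b1 were not called by edgeR with the filter. A match of 5 letters is a description of the sequence and not a binding site.

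The levels of the 9 genes spanned a wide range. By mean FPKM over the 6 tumors, Nos2 stood first at 25.7 FPKM, above 89.9% of all genes. Entpd1 (18.7 FPKM) and Ido1 (11.3 FPKM) followed, and the ranges of neighbors in this order overlapped. Nt5e came next at 4.38 FPKM, apart from Ido1 above it and from the receptors below it. Adora2b (2.26 FPKM), Adora2a (2.20 FPKM) and Ido2 (1.64 FPKM) overlapped with each other. Tdo2 (0.105 FPKM) and Il4i1 (0.0417 FPKM) were lowest, and their ranges overlapped too. Adora2a and Adora2b exceeded 59.6% and 59.8% of all genes in mean FPKM, and Il4i1 exceeded 28.7%.

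**Figure D1:**
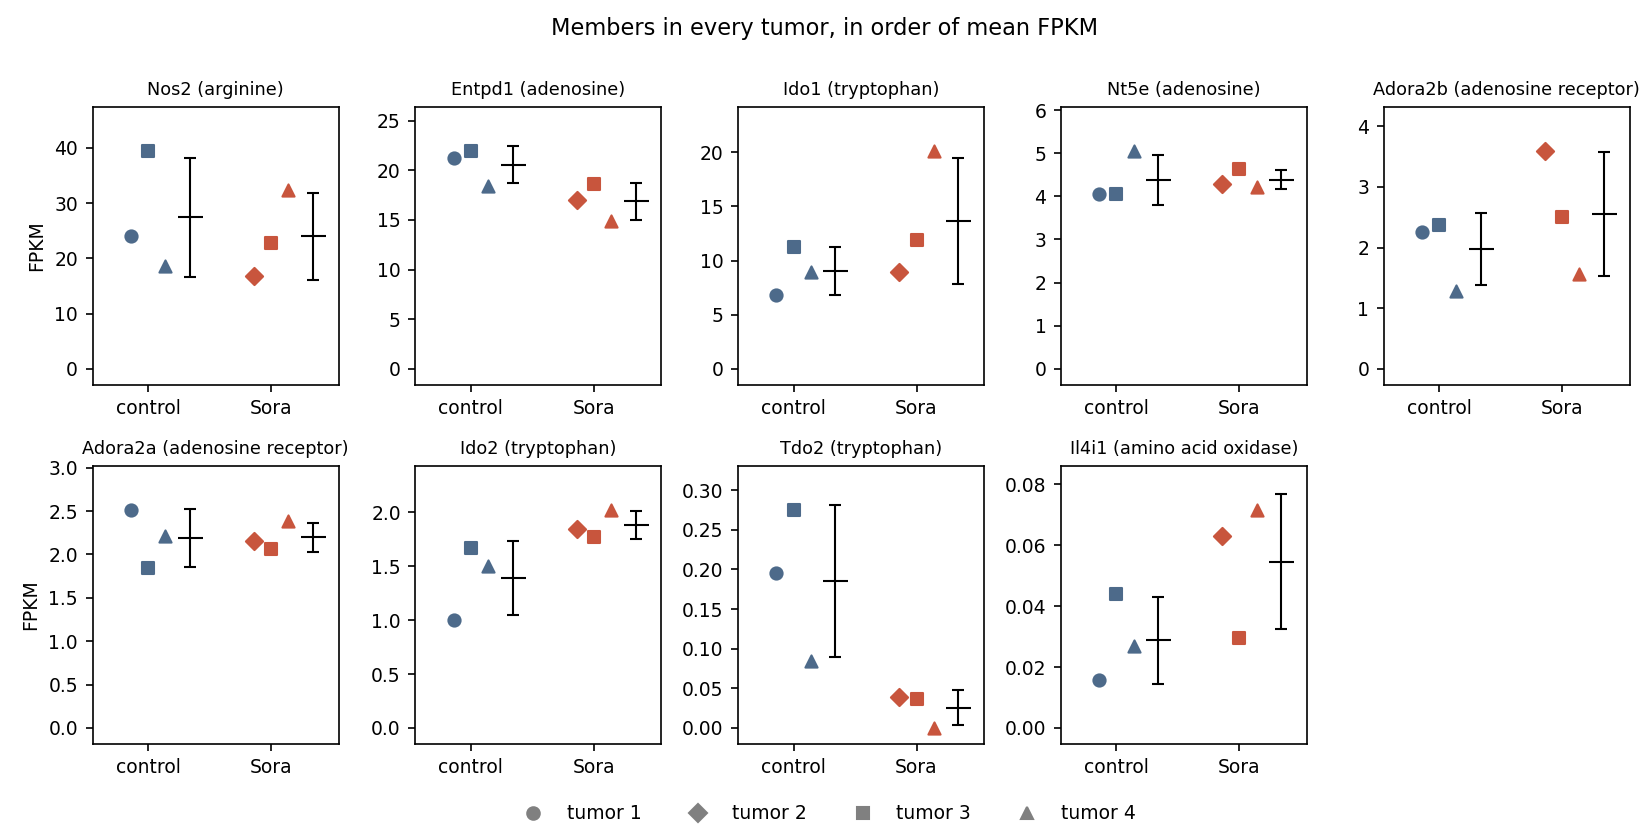
FPKM of the 9 genes in each of the 6 tumors, with 1 panel per gene and linear axes that include 0. Control tumors are blue, Sora-treated tumors are red, marker shapes give the tumor number, and black bars give the group mean ± SD (n = 3). The Sora-treated tumors lie above every control tumor for Ido2 and below every control tumor for Tdo2, and the groups overlap in the other panels.

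To examine the tryptophan enzymes, Ido1 was considered first. Ido1 was at 6.86, 11.3 and 8.93 FPKM in control tumors 1, 3 and 4 and at 8.95, 11.9 and 20.1 FPKM in Sora-treated tumors 2, 3 and 4. Sora-treated tumor 4 stood above the other 5 tumors, and Sora-treated tumor 2 lay within the control range. Control tumors averaged 16.2 ± 4.39 CPM and Sora-treated tumors 24.7 ± 11.1 CPM (SD, n = 3 each), a fold of 1.53 with a 95% interval of 1.0 to 2.33. This is a log2 fold change of 0.61 (SE 0.28, edgeR adjusted p = 0.289). Without Sora-treated tumor 4 it was 0.19 (edgeR adjusted p = 0.797). Before adjustment, the p of Ido1 was 0.0493 in edgeR, 0.162 in DESeq2 and 0.00372 in edgeR without the filter.

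Ido2, the neighbor of Ido1 on chromosome 8, encodes a related enzyme with weaker activity on tryptophan. Ido2 was at 1.003, 1.667 and 1.498 FPKM in control tumors and at 1.85, 1.774 and 2.022 FPKM in Sora-treated tumors. All 3 Sora-treated tumors lay above all 3 control tumors, and control tumor 1 was the lowest. Control tumors averaged 11.13 ± 2.997 CPM and Sora-treated tumors 15.14 ± 1.357 CPM. Between the groups this is a log2 fold change of 0.44 (SE 0.18, edgeR adjusted p = 0.227). Without control tumor 1 it was 0.25 (edgeR adjusted p = 0.462). The gene length behind the FPKM was 1791 bases for Ido1 and 8002 bases for Ido2. In control tumors Ido1 exceeded Ido2 by 6.52 times in FPKM (the mean of the ratios of 3 tumors) and by 1.45 times in mean CPM, so the order held on both scales while the distance depended on the length. Ido1 made up 82.6% to 90.9% of the summed FPKM of Ido1, Ido2 and Tdo2 in each tumor.

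Tdo2, the dioxygenase of the liver, had 10, 15 and 5 reads in control tumors and 2, 2 and 0 in Sora-treated tumors. Every control tumor had more reads than any Sora-treated tumor. The 3 control tumors summed to 30 reads and the 3 Sora-treated tumors to 4 reads, a ratio of 0.137 after scaling to the totals (95% exact interval for counting error 0.035 to 0.388). An exact two-sided permutation test of log2(CPM + 1) gave p = 0.1, the smallest that 3 against 3 tumors allow. When no filter was applied, the adjusted p of Tdo2 was 0.116 (edgeR). The 0 of Sora-treated tumor 4 allows up to 3 reads.

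Il4i1 had 1, 3 and 2 reads in control tumors and 4, 2 and 5 in Sora-treated tumors. The groups overlapped, and the ratio of the sums was 1.88 with an interval of 0.637 to 6.18 for counting error. No difference was detectable at this depth. In the annotation Il4i1 overlaps Il4i1b and Tbc1d17, and the sources used here do not state whether strand was used in counting, so even these few reads are uncertain.

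The next question was whether the arginine enzyme differed. Nos2 was at 24.1, 39.5 and 18.7 FPKM in control tumors and at 16.8, 22.8 and 32.5 FPKM in Sora-treated tumors. The groups overlapped over most of their range. The log2 fold change was -0.18 (SE 0.28, edgeR adjusted p = 0.802), and it was 0.21 without control tumor 3 and -0.48 without Sora-treated tumor 4.

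**Figure D2:**
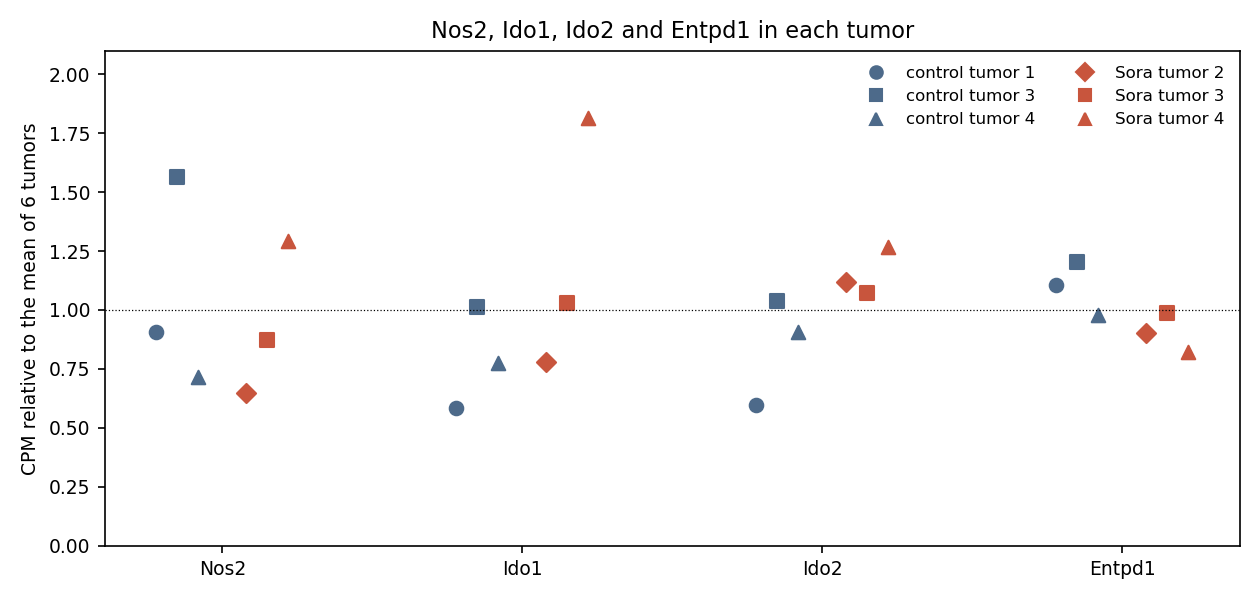
CPM of Nos2, Ido1, Ido2 and Entpd1 in each tumor, divided by the mean of the 6 tumors (dotted line), with control tumors in blue, Sora-treated tumors in red and a marker for each tumor number. Control tumor 3 is the highest control and Sora-treated tumor 4 the highest Sora-treated tumor for Nos2, Ido1 and Ido2, whereas Sora-treated tumor 4 is the lowest tumor for Entpd1.

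Several members shared the tumor in which they were highest. The share of all genes highest in each tumor was not counted, so the counts below are not a trait of the members. Among the control tumors, 7 of the 9 members were highest in tumor 3, all but Nt5e and Adora2a. These include Tdo2 and Il4i1, with only 15 and 3 reads in that tumor. Among the Sora-treated tumors, 5 of the 9 were highest in tumor 4, and Nos2, Ido1, Ido2 and the barely detected Il4i1 were highest in both. The lowest tumors differed: in control, Nos2 was lowest in tumor 4, and Ido1 and Ido2 in tumor 1. From the lowest to the highest tumor, Nos2 varied by 2.18-fold among control and 2.0-fold among Sora-treated tumors, Ido1 by 1.73-fold and 2.33-fold, and Ido2 by 1.75-fold and 1.18-fold. Nt5e varied by 1.27-fold and 1.08-fold, Entpd1 by 1.23-fold and 1.2-fold, Adora2a by 1.29-fold and 1.2-fold, and Adora2b by 1.9-fold and 2.23-fold.

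For the adenosine route, the ATP-degrading enzyme Entpd1 had the smallest p of the 7 genes tested in edgeR with the filter, whereas without the filter Ido1 had a smaller one. Entpd1 was at 21.2, 22.0 and 18.4 FPKM in control tumors and at 17.0, 18.6 and 14.9 FPKM in Sora-treated tumors. The groups overlapped only because control tumor 4 lay just under Sora-treated tumor 3. Control tumors averaged 101.7 ± 10.4 CPM and Sora-treated tumors 84.0 ± 7.64 CPM, a fold of 0.826 (95% interval 0.714 to 0.955). The log2 fold change was -0.28 (SE 0.095), and its adjusted p of 0.155 in edgeR did not pass the threshold. DESeq2 gave an adjusted p of 0.0849.

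Nt5e, the enzyme that makes the adenosine, was at 4.05, 4.05 and 5.05 FPKM in control tumors and at 4.29, 4.64 and 4.22 FPKM in Sora-treated tumors. All 3 Sora-treated tumors lay inside the control range. The log2 fold change was 0.010 with a 95% interval of -0.24 to 0.26 (edgeR adjusted p = 0.979), so the interval reaches from 0.845-fold to 1.2-fold. The ratio of Entpd1 to Nt5e in FPKM was 5.25, 5.43 and 3.65 in control tumors and 3.97, 4.02 and 3.54 in Sora-treated tumors. These ratios overlapped between the groups (exact two-sided permutation test of the log2 ratio, n = 3, p = 0.3).

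The receptors were close to each other in level. Adora2a, the main adenosine receptor of T cells, was at 2.51, 1.85 and 2.21 FPKM in control tumors and at 2.16, 2.06 and 2.38 FPKM in Sora-treated tumors. All Sora-treated values lay inside the control range, and the log2 fold change was 0.023 (95% interval -0.35 to 0.39, edgeR adjusted p = 0.967). Adora2b, which needs higher adenosine and is found on myeloid and stromal cells, was at 2.26, 2.37 and 1.29 FPKM in control tumors and at 3.60, 2.51 and 1.56 FPKM in Sora-treated tumors. Sora-treated tumor 2 was the highest, and the groups overlapped. Its log2 fold change was 0.38 (95% interval -0.33 to 1.08, edgeR adjusted p = 0.609), and it was 0.059 without Sora-treated tumor 2, 0.14 without control tumor 4 and 0.62 without Sora-treated tumor 4. Adora2a exceeded Adora2b in some tumors and not in others: the ratio in FPKM was 1.11, 0.779 and 1.71 in control and 0.6, 0.819 and 1.53 in Sora-treated tumors.

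**Figure D3:**
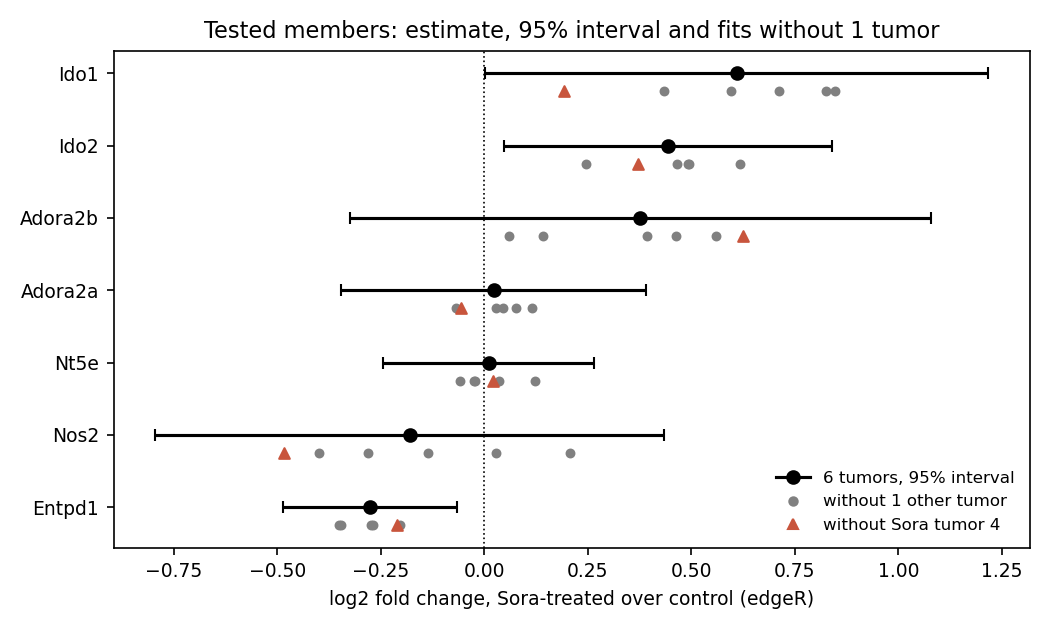
Log2 fold change (Sora-treated over control tumors, edgeR) of the 7 members tested, with black points for the estimate and bars for its 95% interval. Small points under each bar give the fits without 1 tumor, the red triangle without Sora-treated tumor 4, and the dotted line marks 0. The intervals of Entpd1, Ido1 and Ido2 do not include 0 before adjustment, and those of Nos2, Nt5e, Adora2a and Adora2b do.

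Genes with a pattern like that of Entpd1 were sought among 14113 genes whose mean CPM was 1 or more. The likeness was the root mean square difference of log2(CPM + 1) over the 6 tumors after centering each gene on its mean. The closest were Ydjc (0.0303), Kbtbd4 (0.0333) and Man2b1 (0.0335), the last of which is the lysosomal alpha-mannosidase. Ydjc was near 1 CPM, where the added 1 narrows its differences.

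To place the members in their pathways, the other genes of each route were counted. In the tryptophan and kynurenine list, 21 genes were tested, and edgeR called 2 up-regulated and 1 down-regulated, beside 1.94% and 1.34% of all genes. At an unadjusted p under 0.05 there were 5, beside 17.2% of all genes, and the median log2 fold change was -0.038. DESeq2 called 3 up-regulated and 2 down-regulated, beside 7.89% of all genes in either direction. Tiparp, an ADP-ribosyltransferase and AhR target, was at 52.6, 54.9 and 59.9 CPM in control tumors and at 102.0, 82.0 and 116.0 CPM in Sora-treated tumors (log2 fold change 0.84, SE 0.12, edgeR adjusted p = 0.0087). Ahrr, the repressor that AhR induces, was at 1.46, 1.87 and 1.29 CPM in control and at 3.42, 3.96 and 3.14 CPM in Sora-treated tumors (log2 fold change 1.19, SE 0.26, edgeR adjusted p = 0.0351). These are the genes whose promoter windows are printed above. Ddc, the decarboxylase that makes serotonin, dopamine and tryptamine, was at 16.9, 17.1 and 17.1 CPM in control and at 7.35, 10.2 and 7.52 CPM in Sora-treated tumors (log2 fold change -1.03, SE 0.14, edgeR adjusted p = 0.0087).

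The AhR target genes Cyp1a1 and Cyp1b1 were not called by edgeR with the filter but were by DESeq2, with opposite signs. Cyp1a1 had a log2 fold change of 0.51 (edgeR adjusted p = 0.0932, DESeq2 0.0146) and Cyp1b1 one of -0.48 (edgeR adjusted p = 0.103, DESeq2 0.0161). Ahr itself had a log2 fold change of 0.064 (edgeR adjusted p = 0.755). Acmsd, which steers kynurenine products away from NAD synthesis, had a log2 fold change of 0.64 (edgeR adjusted p = 0.388), and it was 0.38 without Sora-treated tumor 4.

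In the arginine, nitric oxide and polyamine list, 23 genes were tested, and edgeR called 1 up-regulated and 1 down-regulated, with a median log2 fold change of 0.066. At an unadjusted p under 0.05 there were 6, beside 17.2% of all genes. DESeq2 called 1 up-regulated and 3 down-regulated, beside 7.89% of all genes in either direction. Smox, which oxidizes spermine, was at 91.0, 111.0 and 91.0 CPM in control and at 205.0, 156.0 and 225.0 CPM in Sora-treated tumors (fold 2.0, SE of the log2 value 0.13, edgeR adjusted p = 0.0085). Ass1, which rebuilds arginine from citrulline by way of argininosuccinate, was at 147.0, 222.0 and 141.0 CPM in control and at 95.3, 106.0 and 90.4 CPM in Sora-treated tumors (fold 0.570, SE of the log2 value 0.15, edgeR adjusted p = 0.0211). Neither acts in the step of Nos2. Gatm, Sat1 and Sms did not pass in edgeR with the filter, while Gatm and Sat1 passed in DESeq2 and in edgeR without the filter. Gatm, an enzyme of creatine synthesis that uses arginine, had a log2 fold change of -0.66 (edgeR adjusted p = 0.0529, DESeq2 0.00195), Sat1, which acetylates polyamines, one of -0.32 (edgeR 0.0948, DESeq2 0.0218), and Sms, which makes spermine, one of 0.25 (edgeR 0.215).

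In the extracellular ATP and adenosine list, 24 genes were tested, and edgeR called 0 up-regulated and 1 down-regulated, with a median log2 fold change of -0.24 beside -0.00037 over all genes. At an unadjusted p under 0.05, 14 of the 24 genes passed, 11 of them lower and 3 higher in Sora-treated tumors, beside 17.2% of all genes. DESeq2 called 0 up-regulated and 6 down-regulated, beside 7.89% of all genes in either direction. Without the filter, edgeR called 0 and 4, beside 1147 of 25274 genes in either direction. The gene called by edgeR with the filter was Cd38, an NAD-consuming ectoenzyme that feeds a second route to adenosine. It was at 45.2, 41.8 and 44.4 CPM in control and at 32.7, 34 and 34.3 CPM in Sora-treated tumors (log2 fold change -0.38, SE 0.075, edgeR adjusted p = 0.0257). Adk, which phosphorylates adenosine inside the cell, had a log2 fold change of -0.35 (edgeR adjusted p = 0.0533, DESeq2 0.0179), Entpd2, another ectonucleotidase, one of -0.38 (edgeR 0.0764, DESeq2 0.0216), and Slc29a3, a nucleoside transporter, one of -0.38 (edgeR 0.0862, DESeq2 0.0247). The summed FPKM of the list was 247 to 253 in control and 214 to 240 in Sora-treated tumors, without overlap. Of all single genes tested, 22.2% had groups that did not overlap in CPM. The sums of the tryptophan list (212 to 218 in control, 210 to 224 in Sora-treated tumors) overlapped. So did those of the arginine list (730 to 852 and 729 to 795).

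The genes of interferon-gamma and interleukin-4 signaling, which include textbook inducers of Ido1 and Nos2, were counted as the input. Of 23 tested, 0 were called by edgeR and 9 passed at an unadjusted p under 0.05 (5 lower, 4 higher), beside 17.2% of all genes, with a median log2 fold change of -0.17. DESeq2, and likewise edgeR without the filter, called 3 up-regulated and 2 down-regulated. Over all genes in either direction, DESeq2 called 7.89% and edgeR without the filter 1147 of 25274. The summed FPKM of the list was 1160 to 1520 in control and 1120 to 1150 in Sora-treated tumors, without overlap. Jak2, a kinase of the interferon-gamma receptor, had a log2 fold change of 0.29 (edgeR adjusted p = 0.0556, DESeq2 0.00252), Cxcl10, an interferon-induced chemokine, one of -0.48 (edgeR 0.0583, DESeq2 0.00224), and Il10ra, a chain of the interleukin-10 receptor, one of -0.34 (edgeR 0.0640, DESeq2 0.017). Jak1, the other kinase of the interferon-gamma receptor, had one of -0.16 (edgeR adjusted p = 0.260). Ifng itself had a log2 fold change of -0.11 (edgeR adjusted p = 0.833).

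Without Sora-treated tumor 4, all 6 called pathway genes passed the threshold no longer, while their log2 fold changes stayed near the values with all 6 tumors. They were 0.72 for Tiparp and 0.89 for Smox (edgeR adjusted p = 0.0543 for both), -0.955 for Ddc (0.0601), -0.39 for Cd38 (0.114), 1.26 for Ahrr (0.121) and -0.76 for Ass1 (0.123). Ass1 was also lost without Sora-treated tumor 2 (0.0744). Cd38 was also lost without control tumor 1 (0.0909), control tumor 4 (0.0721) or Sora-treated tumor 2 (0.106). Ahrr was also lost without control tumor 1 (0.0939), control tumor 4 (0.0970), Sora-treated tumor 2 (0.114) or Sora-treated tumor 3 (0.0611). With the replicate block, Cd38 and Ahrr were lost (edgeR adjusted p = 0.37 and 0.293), while Ddc, Tiparp, Smox and Ass1 kept the call. On FPKM, limma called Cd38 and Ass1 in no fit, while it called Ddc, Tiparp and Smox with log2(FPKM + 1).

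**Figure D4:**
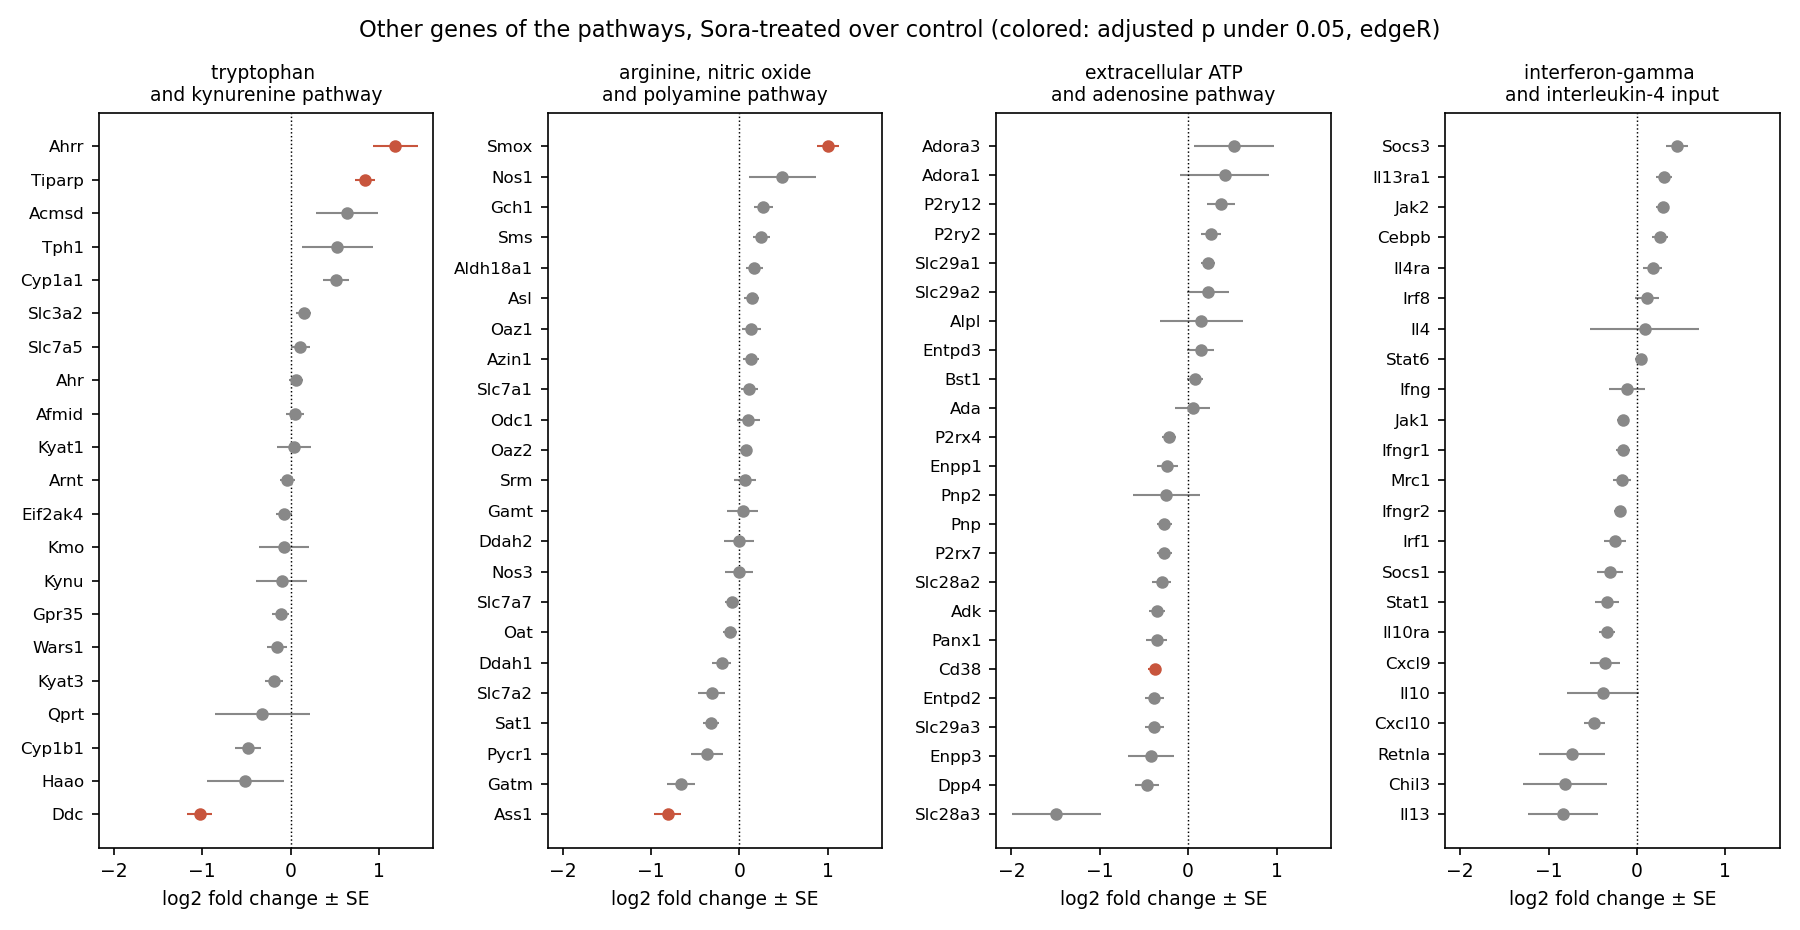
Log2 fold change (Sora-treated over control tumors, edgeR) of every tested gene in the 4 pathway lists, with 1 point per gene, bars for ± SE, red for genes with an adjusted p under 0.05 and gray for the others. Tiparp, Ahrr and Smox lie above 0 and Ddc, Ass1 and Cd38 below 0 as the 6 genes called, and the median of the extracellular ATP and adenosine list is at -0.24.

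Markers of the cell types that carry these enzymes were measured in the same libraries, and none of the markers in the tables was at 0 in every tumor. The summed FPKM of 10 macrophage markers was 1107 to 1321 in control and 923.2 to 1109 in Sora-treated tumors, and 9 of the 10 were lower, 8 of the 10 passed an unadjusted p under 0.05 and Mertk was down-regulated (edgeR), beside 17.2% of all genes at that p. That of 8 T cell markers was 116 to 132 in control and 94.8 to 101 in Sora-treated tumors, all 8 lower, 6 of them at that p, with Cd6 down-regulated. That of 10 dendritic cell markers was 45.8 to 51.7 and 37.8 to 44.3, with 7 lower and 3 of the 10 at that p. DESeq2 called 5 macrophage, 2 T cell and 1 dendritic cell markers lower and none of them higher, beside 7.89% of all genes in either direction. Without the filter, edgeR called 5, 2 and 1 lower and 1 macrophage marker higher, beside 1147 of 25274 genes. The macrophage sum overlapped between the groups only in control tumor 4 and Sora-treated tumor 3, and the same held for Entpd1.

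Neutrophil markers, 10 in number, summed to 122 to 162 FPKM in control tumors and 168 to 235 FPKM after Sora. Of the 8 tested, 6 were higher, 5 were at that p and S100a9 was up-regulated, while DESeq2 called 2 higher and edgeR without the filter 4. The sum over 9 fibroblast markers was 1920 to 2050 in control and 1530 to 1840 in Sora-treated tumors, with 8 lower and 3 of the 9 at that p. DESeq2, and likewise edgeR without the filter, called 3 of the fibroblast markers lower, against 0 in edgeR with the filter. Over all genes in either direction, DESeq2 called 7.89% and edgeR without the filter 1147 of 25274. For Treg cells the ranges overlapped, at 19.1 to 22.8 and 20.6 to 23.3, as they did for B and plasma cells (12.3 to 26 and 13.1 to 27), NK cells (25.5 to 44.5 and 26.3 to 32.1) and endothelial cells (75.3 to 85.4 and 57.7 to 81.0). The markers of skin around the graft overlapped at 128 to 482 and 280 to 430, with all 8 log2 fold changes above 0 (median 0.38) and 0 of 8 at an unadjusted p under 0.05 in edgeR. Those of skeletal muscle overlapped at 98.0 to 129 and 108 to 150, with all 7 above 0 (median 0.17) and 1 of 7 at that p. The part of these cell types in the values of the members was not tested.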

How the data were processed

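The authors deposited raw counts per gene, without normalization, for 5 tumors and FPKM for all 6. The FPKM of the authors follow from the counts, 1 length per gene and the library total. The submitters' notes name fastp, HISAT2, HTSeq, R 3.2.0, DESeq2 and GRCm39, whereas the methods name Bowtie2 and GRCm38. The annotation, use of strand and filters are not given in the sources used here, and the tables carry no coordinates.

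For Sora-treated tumor 4, FPKM were turned back into counts. Held back in turn, the other 5 tumors came back exactly. In tumor 4, 342 genes with 512 reads (0.0015% of its reads) had no known length and were left at 0. Totals of 31073830 to 36205814 reads limit precision for genes with few reads, and intervals on reads cover counting error only.

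The 16513 genes that reached 10 counts in 3 or more tumors were tested with edgeR 4.0.16 in R 4.3.3 (quasi-likelihood fit without the robust option, TMM scaling). P-values were adjusted by Benjamini-Hochberg, and the threshold was 0.05. CPM are scaled by TMM. Alternatives were DESeq2 1.42.0, its size factors in edgeR, no filter, a replicate block, leaving out each tumor, and limma 3.58.1 on log2(FPKM + 1) or log2(FPKM + 0.1). The FPKM fits kept genes that reached 1 FPKM in 3 or more tumors, or every gene with reads. The fits were tested on simulated data. The text names 9 members, in each pathway list the genes called and the next 3 by p, and the 3 genes nearest to Entpd1. Ahr, Ifng, Jak1 and the called markers were named after their values were seen. The members and lists were chosen with earlier results of these data known. Otc, Trac and Trbc2 were not analysed here, and some listed genes are not reported here.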

Additional observations from a re-analysis of the deposited data

How the results depend on the processing

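None of the 7 members tested passed an adjusted p under 0.05 in any of the 13 alternatives, where the smallest adjusted p was 0.0716 (Ido1, no filter, edgeR). At an unadjusted p under 0.05, 3 had passed in edgeR. Of the 91 member values, 82 kept their sign. Ido1, Ido2 and Adora2b stayed positive and Entpd1 stayed negative in all 13. The log2 fold change of Nos2 was 0.0029 and that of Nt5e -0.029 with a replicate block. That fit compares only tumors 3 and 4 of each group, since control tumor 1 and Sora-treated tumor 2 share no number. Leaving out 1 tumor gave -0.48 to 0.21 for Nos2, -0.058 to 0.12 for Nt5e and -0.068 to 0.12 for Adora2a. Of the 232 values of the 18 pathway genes, 28 lost and 29 gained the call.

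Over all genes, against 321 higher and 222 lower, DESeq2 called 626 and 576, no filter gave 570 and 577, and the replicate block gave 80 and 45. Leaving out 1 tumor gave 4 to 574 higher and 1 to 571 lower. On FPKM, limma called 136 and 62 with log2(FPKM + 1) and 21 and 17 with log2(FPKM + 0.1). With 0.1 and no filter it called 0 and 0, where 2936 of 25616 genes had an unadjusted p under 0.05. The cause of these differences was not tested. The groups share the replicate numbers 3 and 4, and the deviations of same-numbered tumors correlated at -0.033 and -0.074. The labels do not say what a shared number means, and a shared batch or day was not tested. Where a tumor was left out, the group with 2 tumors was assumed to vary like the other. Tdo2 and Il4i1 were limited by depth.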
